A study of Mus musculus with 16 samples.

Results

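Genes that mark neurons of the cerebellum were followed in the brains of old mice: Car8, Cbln1, Cbln3, Pcp2, Calb1, Pvalb, Grid2ip and Itpr1. They were found by symbol among the 40481 genes listed, and each of the 8 matched 1 gene. Of these, 6 passed the filter on low counts and were tested among 14949 genes, while Cbln3 and Pcp2 did not pass it and are given by their values and by a fit without the filter. The study asked what treatment with adropin, a secreted peptide, does in the aged brain. The mice were males of the strain given as C57BL in the labels and C57BL/6J in the study's methods, bought at 18 months of age with no genetic change stated. One group of 8 received the peptide adropin(34-76) at 90 nmol/kg/d as a daily intraperitoneal injection in 0.9% saline with 0.1% BSA, and the other group of 8 received the saline diluent alone. All mice were injected for 2 weeks before behavioural tests and throughout them, and were fasted for 6 h before tissue was taken. Each library came from the snap-frozen brain tissue of 1 mouse, and which part of the brain went into it is not given in the sources used here. Each mouse goes by its sample title (8_3, for example), and what its numbers stand for is not given either.

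The cerebellum holds a few types of neuron in a repeated circuit. Granule cells, the most numerous neurons of the brain, send parallel fibres onto Purkinje cells, which are the sole output of the cerebellar cortex. Cbln1 and its partner Cbln3 are secreted by granule cells at this synapse, where Cbln1 binds neurexins on the fibre and organizes the contact, and delphilin (Grid2ip) is a scaffold on the Purkinje cell side. Inside the Purkinje cell calcium is released by Itpr1, a channel of the endoplasmic reticulum that Car8 inhibits, and it is buffered by calbindin (Calb1) and parvalbumin (Pvalb). Pcp2 modulates G proteins in Purkinje cells. Pcp2, Cbln3 and the granule cell receptor subunit Gabra6 are known for being close to restricted to the cerebellum and a few other cells, whereas Calb1, Pvalb and Itpr1 are also made by many forebrain neurons.

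Upstream sequence is shown for a narrowly and a broadly expressed member that were high in the same mouse. A window of 250 bases before a transcription start is shown for Pcp2, the most Purkinje-restricted gene of the 8, and for Pvalb, which is made by interneurons throughout the brain. Both are from the RefSeq annotation of GRCm38.p6, on the minus strand, written 5′ to 3′, with the hexamer AGGTCA in capitals where it occurs on either strand.

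Pcp2, chr8:3625548-3625797: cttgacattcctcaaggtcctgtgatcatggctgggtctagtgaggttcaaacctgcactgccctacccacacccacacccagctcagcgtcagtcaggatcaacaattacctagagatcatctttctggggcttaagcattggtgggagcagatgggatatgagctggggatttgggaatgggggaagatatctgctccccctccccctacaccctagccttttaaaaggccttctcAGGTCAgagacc

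Pvalb, chr15:78206401-78206650: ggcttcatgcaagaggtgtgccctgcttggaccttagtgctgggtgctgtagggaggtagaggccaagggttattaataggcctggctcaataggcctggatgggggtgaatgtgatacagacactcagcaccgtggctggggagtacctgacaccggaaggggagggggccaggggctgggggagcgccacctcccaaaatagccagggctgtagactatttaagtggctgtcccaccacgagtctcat

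AGGTCA is the half-site bound by nuclear receptors such as RORα (Rora), a factor that Purkinje cells need to mature. It begins 12 bases before the start in the Pcp2 window, and the Pvalb window does not hold these letters. Windows were found for 4 of the 8 genes (Pcp2, Cbln3, Pvalb and Grid2ip, 9 windows in all for their several starts), and 3 of the 9, all of them Pcp2's, held the hexamer. Of these 3, 2 overlap and hold the same match. Of all 32851 windows of this length, 4607 (14.02%) held it. A match is a description of these letters and was not tested as a binding site.

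On GRCm38, with the GENCODE M21 annotation, Pcp2 (ENSMUSG00000004630) lies on chromosome 8 from 3623371 to 3625545 and Car8 (ENSMUSG00000041261) on chromosome 4 from 8143362 to 8239041, both on the minus strand. Cbln3 (ENSMUSG00000040380) lies on chromosome 14 from 55878913 to 55884392 and Cbln1 (ENSMUSG00000031654) on chromosome 8 from 87468405 to 87472609, also on the minus strand. Calb1 (ENSMUSG00000028222) lies on chromosome 4 from 15881264 to 15908064 on the plus strand and Pvalb (ENSMUSG00000005716) on chromosome 15 from 78191114 to 78206400 on the minus strand. Grid2ip (ENSMUSG00000010825), on chromosome 5 from 143357338 to 143392152, and Itpr1 (ENSMUSG00000030102), on chromosome 6 from 108213096 to 108551109, are on the plus strand. Whether counting used strand is not given, so reads of genes that overlap on opposite strands cannot be told apart. Pcp2 overlaps Pet100, which had 10669 reads over the 16 mice, and Cbln1 overlaps the lincRNA Gm2694, which had 3314. Calb1, Pvalb and Cbln3 overlap no other annotated gene.

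Total counts ran from 35185051 to 70314050 in adropin-treated mice and from 35026503 to 47245785 in saline-treated mice. Levels are CPM, counts scaled to the size of the library, here after correction by TMM factors. Saline mouse 8_3 stood apart from the other 15 mice in the cerebellar genes, so each comparison is given with this mouse and without it.

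In 15 of the 16 mice the most cerebellum-restricted genes were low, with Pcp2 at no more than 0.781 CPM and Cbln3 at no more than 2.77. In the remaining mouse, 8_3 of the saline group, Pcp2, Cbln3, Car8 and Cbln1 were 3.93 to 45.1 times as high as in any other mouse. Without this mouse no member differed between adropin and saline at an unadjusted p below 0.05. Because these are bulk samples, fewer cells of a type and less RNA per cell cannot be told apart.

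Pcp2, the Purkinje cell protein, ran from 0.110 to 0.733 CPM in adropin-treated mice with a median of 0.368. In saline-treated mice it ran from 0 in mouse 5_4 to 28.2 in mouse 8_3 with a median of 0.227, and the highest of the other 7 saline mice, 7_1, had 0.781. Apart from mouse 8_3 the groups overlapped almost entirely. Without that mouse the means were 0.393 ± 0.209 (SD, n = 8) for adropin and 0.317 ± 0.263 (SD, n = 7) for saline. The two-sided exact permutation test on log2 levels gave p = 0.819 over 12870 divisions of all 16 mice and p = 0.377 over 6435 divisions of 15.

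Car8, which inhibits the IP3 receptor, ran from 5.13 to 7.24 CPM in adropin-treated mice with a median of 5.81. In saline-treated mice it ran from 4.47 to 91.7 with a median of 5.33. The value of 91.7 was that of mouse 8_3, and the other 7 saline mice, at up to 6.95, lay within or just below the range of the adropin group. The log2 fold change, adropin over saline, was -1.40 ± 0.61 (SE) with an unadjusted p = 0.0338 and an adjusted p = 0.874 in edgeR's quasi-likelihood test over all genes. Without mouse 8_3 it was 0.20 ± 0.11 with an unadjusted p = 0.0831 and an adjusted p = 0.994, so that the direction turned. The exact permutation test, which rests less on 1 large value, gave p = 0.960 with the mouse and p = 0.0819 without it. With all mice, limma-voom gave -0.34 (unadjusted p = 0.495) and limma-trend -0.33 (unadjusted p = 0.445), smaller than the edgeR value by more than its error. With the first label number as the block edgeR gave 0.27 (unadjusted p = 0.668), and with the second -1.07 (unadjusted p = 0.153). The call of the all-mice fit was also lost when 1 of 4 adropin-treated mice was left out, although the log2 fold change stayed between -1.38 and -1.36, with an unadjusted p = 0.0501 without 2_1, unadjusted p = 0.0517 without 3_3, unadjusted p = 0.05005 without 4_3 and unadjusted p = 0.0507 without 5_5 (edgeR).

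Cbln1, the synapse organizer of granule cells, ran from 8.46 to 32.2 CPM in adropin-treated mice with a median of 21.3. In saline-treated mice it ran from 15.1 to 126 with a median of 23.1. Mouse 8_3 again had the highest value, and adropin mouse 1_3 the lowest. The log2 fold change was -0.69 ± 0.40 (edgeR, unadjusted p = 0.101, adjusted p = 0.874) with all mice and -0.02 ± 0.22 (unadjusted p = 0.931, adjusted p = 0.997) without mouse 8_3. With the first label number as the block and all mice it was -0.05 (unadjusted p = 0.916). The corresponding exact permutation tests gave p = 0.427 and p = 0.841. Cbln1 is also made by some neurons outside the cerebellum, and its level per kilobase in the other 15 mice, given later, was above that of its partner.

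Cbln3, made by granule cells and secreted together with Cbln1, ran from 0.489 to 0.885 CPM in adropin-treated mice with a median of 0.647. In saline-treated mice it ran from 0.405 to 125 with a median of 0.746. After mouse 8_3 the next saline mice were 7_1 with 2.77 and 6_1 with 1.19, both above every adropin-treated mouse, and of the other 5 saline mice 4 lay within the adropin range and 5_4 below it. Without the filter the log2 fold change was -4.67 ± 1.15 (edgeR, unadjusted p = 0.0006, adjusted p = 0.663), and without mouse 8_3 it was -0.63 ± 0.32 (unadjusted p = 0.0655, adjusted p = 0.803). The exact permutation tests gave p = 0.156 and p = 0.300. For Pcp2 the same fit without the filter gave -3.28 ± 1.03 (edgeR, unadjusted p = 0.0044, adjusted p = 0.663) and, without mouse 8_3, 0.30 ± 0.49 (unadjusted p = 0.538, adjusted p = 0.943).

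**Figure D1:**
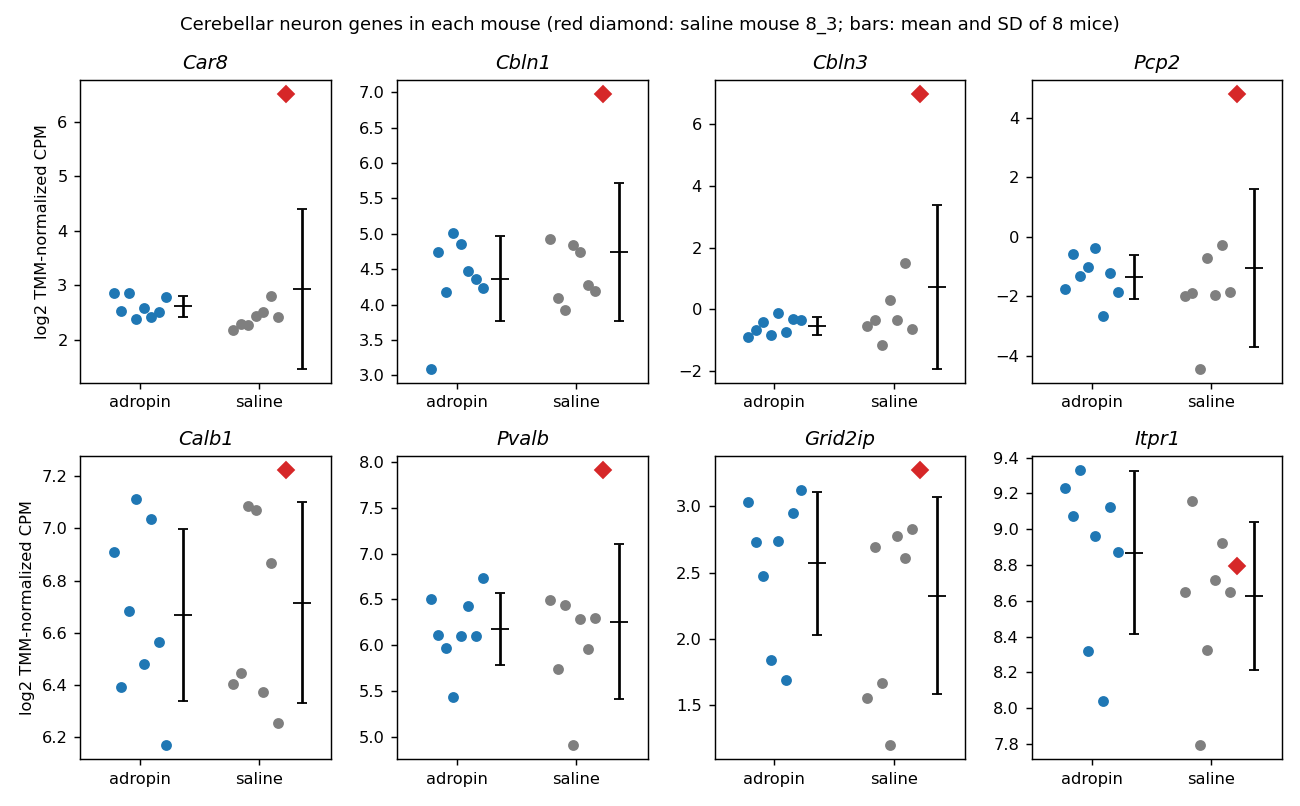
Log2 TMM-normalized CPM (prior count 2) of the 8 genes in each mouse, with adropin-treated mice in blue, saline-treated mice in grey, saline mouse 8_3 as a red diamond, and the mean and SD of all 8 mice of a group as a bar. Mouse 8_3 lies above all other mice in 7 of the 8 panels, by the widest gap for Cbln3 at 125 CPM against 2.77 in the next mouse, and inside the range of the others for Itpr1.

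The other 4 genes, Calb1, Pvalb, Grid2ip and Itpr1, were less affected by this mouse. Calb1 ran from 71.8 to 138 CPM in adropin-treated mice with a median of 98.7, and from 76.1 to 150 in saline-treated mice with a median of 102. The groups overlapped over most of their range, and mouse 8_3 was only 1.08 times the next mouse. The log2 fold change was -0.06 ± 0.16 (edgeR, unadjusted p = 0.717, adjusted p = 0.942), and 0.02 ± 0.16 (unadjusted p = 0.894, adjusted p = 0.996) without mouse 8_3.

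Pvalb, the fast calcium buffer of Purkinje cells, molecular layer interneurons and forebrain interneurons, ran from 43.3 to 107 CPM in adropin-treated mice with a median of 69.0. In saline-treated mice it ran from 30.1 in mouse 6_1 to 240 in mouse 8_3 with a median of 78.2. The other 7 saline mice reached 90.0 and lay within or below the adropin range. The log2 fold change was -0.27 ± 0.30 (edgeR, unadjusted p = 0.377, adjusted p = 0.877) and turned to 0.12 ± 0.20 (unadjusted p = 0.557, adjusted p = 0.994) without mouse 8_3.

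Grid2ip, the Purkinje cell scaffold, ran from 3.17 to 8.68 CPM in adropin-treated mice with a median of 6.62, and from 2.24 to 9.64 in saline-treated mice with a median of 6.24. Both groups held low and high mice, with nothing between 3.52 and 5.502. In edgeR the log2 fold change was 0.18 ± 0.28 (edgeR, unadjusted p = 0.530, adjusted p = 0.896) and 0.34 ± 0.27 (unadjusted p = 0.220, adjusted p = 0.994) without mouse 8_3. With the first label number as the block and all mice it was 0.77 (unadjusted p = 0.0601). The exact permutation tests gave p = 0.441 and p = 0.247.

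Itpr1, the IP3-gated calcium channel, lay at 264 to 644 CPM in adropin-treated mice (median 519), with 222 to 572 in saline-treated mice (median 411). Mouse 8_3 had 444, below 8 of the other 15 mice. Between groups the log2 fold change was 0.25 ± 0.18 (edgeR, unadjusted p = 0.189, adjusted p = 0.874) and 0.27 ± 0.20 (unadjusted p = 0.185, adjusted p = 0.994) without mouse 8_3. The exact permutation tests gave p = 0.282 and p = 0.269. With 1 mouse left out the log2 fold change ran from 0.16 without saline mouse 5_4 to 0.35 without adropin mouse 4_3, where edgeR gave an unadjusted p = 0.0493.

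At a fold change above 1.5 with an unadjusted p below 0.05, 1 of the 6 members tested, Car8, was lower in adropin-treated mice and none was higher. Over all 14949 genes tested, 0.308% were called lower and 0.114% higher. Without mouse 8_3 none of the 6 was called in either direction, where 0.241% of all genes were called lower and 0.087% higher. No gene of the table had an adjusted p below 0.05 in edgeR, although 596 had an unadjusted p below 0.05, and DESeq2 gave 5 genes an adjusted p below 0.05, none of them a member, although it gave no p for Car8 and Cbln1. In the fit of every gene with a count, 3 of the 8 members (Car8, Cbln3 and Pcp2) were called lower, against 2.6% of 30210 genes, and none of the 8 without mouse 8_3, against 2.21% of 30028 genes. Each of these member calls was thus lost without mouse 8_3.

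**Figure D2:**
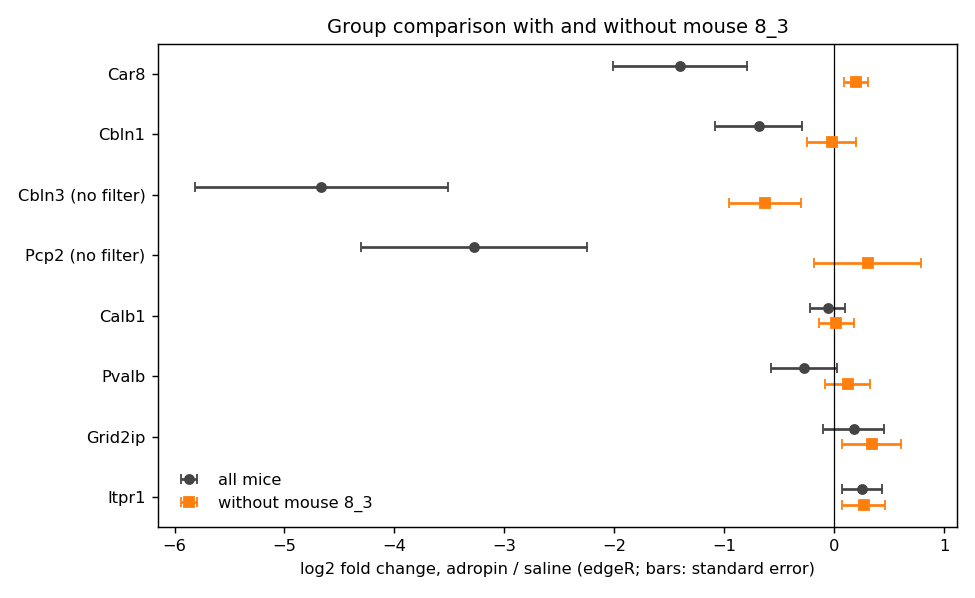
Log2 fold change of the 8 genes, adropin over saline, from edgeR with all 16 mice (grey circles) and without saline mouse 8_3 (orange squares), with bars for the standard error and Cbln3 and Pcp2 from the fit without a filter. The estimates for Cbln3, Pcp2, Car8 and Cbln1 move from between -4.67 and -0.69 to between -0.63 and 0.30, while those for Itpr1, Grid2ip and Calb1 move by less than their errors.

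Mouse 8_3 had 5773 reads of Cbln3, against 14 to 103 reads in each of the other 15 mice. Its Cbln3 level was 178 times their median, with a 95% interval of 173 to 182 that covers the counting error of mouse 8_3 alone. Pcp2 was 112 times the median (106 to 118), Car8 16.2 times (15.7 to 16.7) and Cbln1 6.18 times (6.02 to 6.34). Pvalb was 3.48 times, Calb1 1.58 times, Grid2ip 1.503 times and Itpr1 0.945 times the median of the other 15. The ratio was thus largest for Cbln3 and Pcp2, which the other brains barely held, and a small median enlarges a ratio. Grid2ip had a far smaller ratio than Car8, although their medians over the other 15 mice were near each other (6.41 and 5.65 CPM). By difference from the median, Pvalb was raised most, by 171 CPM, against 124 for Cbln3 and 27.9 for Pcp2.

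Mouse 8_3 was the highest of all 16 mice for 7 of the 8 members (5 of the 6 tested), where it was highest for 11.4% of all genes tested. For 4 members (2 of the 6 tested) it was at least 3 times any other mouse, where this held for 0.107% of all genes tested. The genes were chosen with the values of this mouse known, so these counts describe the mouse. Only 1 mouse carried a difference of this size, and its cause was not tested.

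**Figure D3:**
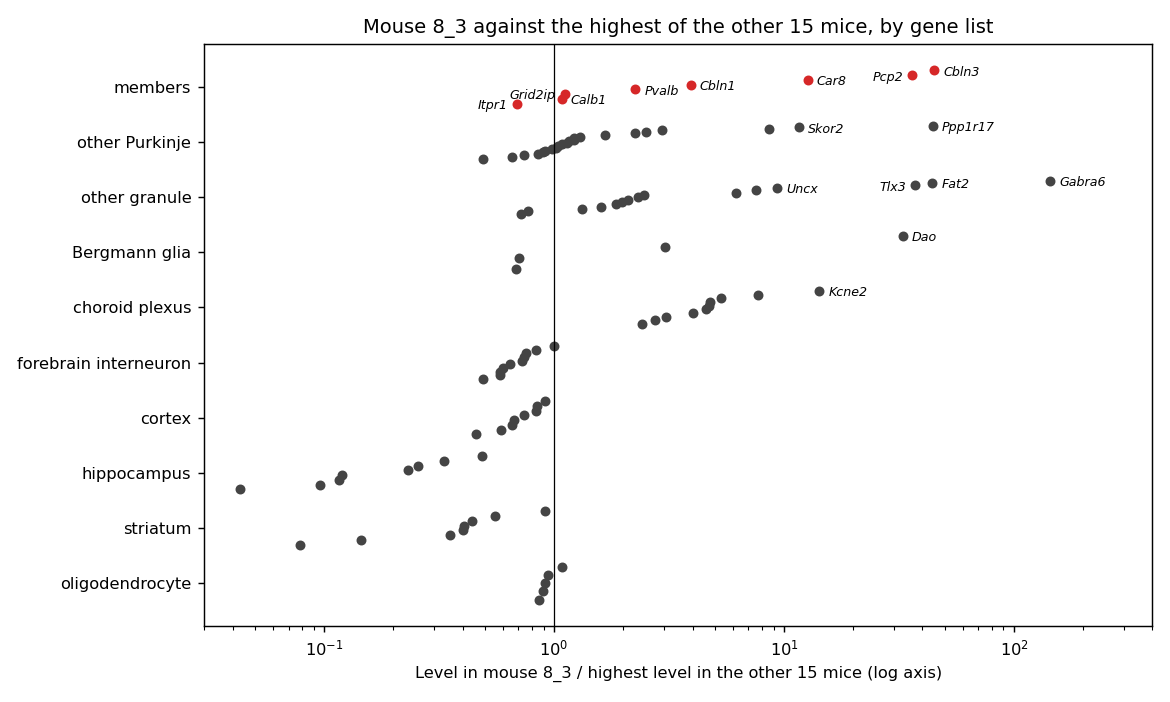
Level in saline mouse 8_3 divided by the highest level among the other 15 mice (log axis), 1 point per gene, with the 8 members in red and 9 further gene lists in grey. Gabra6, Cbln3, Ppp1r17, Fat2, Tlx3, Pcp2 and Dao lie furthest to the right and all 10 choroid plexus genes lie above 1, whereas cortical, hippocampal and striatal genes lie below 1. A value below 1 means only that another mouse was higher.

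Other markers of the same tissue were high in the same mouse. Of 15 further granule cell genes, 13 were highest in mouse 8_3 and 6 were at least 3 times any other mouse. Gabra6, the granule cell GABA receptor subunit, had 1612 reads (34.9 CPM) in mouse 8_3 and at most 10 reads in any other mouse. Fat2, a protocadherin of granule cells, was at 59.5 CPM against at most 1.35, and the patterning factor Zic1 at 90.7 against at most 14.7. Tlx3, at 3.36 CPM against at most 0.0907, Uncx, at 5.63 against 0.603, and En2, at 10.9 against 1.45, are transcription factors of the same list.

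Of 22 further Purkinje cell genes, 15 were highest in mouse 8_3 but only 3 were at least 3 times any other mouse. These were Ppp1r17, a phosphatase inhibitor, at 21.5 CPM against at most 0.485, and the transcription factors Lhx1, at 5.01 against 0.582, and Skor2, at 1.17 against 0.101. Of 4 Bergmann glia genes, the astrocytes that wrap Purkinje cells, Gdf10 was at 31.0 CPM against at most 10.2 and Dao at 12.7 against at most 0.388, while Fabp7 and Slc1a3 were not the highest in this mouse. The summed level of the 4 Bergmann glia genes, most of it Slc1a3, was 375 CPM in mouse 8_3 and lay within the range of the other saline mice (281 to 465).

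Choroid plexus genes, which mark the epithelium that makes cerebrospinal fluid, were also high in mouse 8_3. All 10 of the list were highest in that mouse and 8 were at least 3 times any other mouse. Their summed level was 2495 CPM there, 15.4 to 333 CPM in the other saline mice and 12.7 to 78.0 CPM in the adropin-treated mice. Ttr made up most of it in mouse 8_3 (2398 CPM) and in saline mouse 5_4 (311 of the 333 CPM). Yet mouse 5_4 had the lowest mean log2 level of the 8 members, given later (2.95). Saline mouse 7_1, second highest in that mean, had 31.4 CPM of choroid plexus genes. The summed level of 5 oligodendrocyte genes was 7654 CPM, against 2581 to 6124 in the other saline mice and 2624 to 7612 in the adropin group. Of 12 hindbrain genes with reads, Slc6a5, the glycine transporter of inhibitory neurons, was at 2.04 CPM against at most 0.410, while the defining markers Hoxb3, Hoxb5 and Slc6a2 were at 0 in mouse 8_3. Of 6 olfactory bulb genes, Eomes, which also marks unipolar brush cells of the cerebellum, was at 3.58 CPM against at most 0.135. Doc2g was also highest in mouse 8_3, at 3.77 CPM against at most 3.42. Sp8 was at 1.29 times the median of the other 15 mice, whereas Cdhr1, Trh and Shisa3 were at 0.259, 0.628 and 0.685 times it. The summed level of the 6 genes, 12.6 CPM, lay within the range of the other mice. The 8 hippocampal genes summed to 109 CPM in mouse 8_3, below all other mice, of which the lowest had 144. The 8 cortical genes summed to 1505 CPM, above the other saline mice (1071 to 1472) and within the adropin range (1285 to 1836). The 8 striatal genes, at 190 CPM, lay within the range of the other saline mice (166 to 321). The part of these cell types in the member values was not tested.

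Levels of different genes can be compared only per length of transcript. Per kilobase of exonic sequence, the medians over the 15 other mice were 66.4 CPM for Pvalb, 25.6 for Itpr1, 19.5 for Calb1, 6.74 for Cbln1, 1.47 for Car8, 0.947 for Grid2ip, 0.145 for Cbln3 and 0.138 for Pcp2. Ranges over the mice overlapped for Pvalb and Itpr1, Itpr1 and Calb1, Car8 and Grid2ip, Grid2ip and Cbln3, and Cbln3 and Pcp2. Within each of the 15 mice, though, Pvalb was above Itpr1, Car8 above Grid2ip, and Grid2ip above Cbln3. Which was higher differed between mice for Itpr1 and Calb1, and for Cbln3 and Pcp2. In mouse 8_3 the order was Pvalb with 231 CPM per kilobase, Cbln1 with 41.6, Calb1 with 30.9, Cbln3 with 25.7, Itpr1 with 24.2, Car8 with 23.8, Pcp2 with 15.4 and Grid2ip with 1.42. Cbln3, Car8 and Pcp2 thus reached the range of Calb1 and Itpr1 in this mouse, and Grid2ip did not.

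Further lists were compared between groups in the same fit. Of the 18 Purkinje cell genes tested, 1 passed the cut-off, Homer3, a synaptic scaffold, with -0.60 ± 0.25 (edgeR, unadjusted p = 0.0259, adjusted p = 0.874). Of 9 granule list genes tested, 1 passed, Calb2 (calretinin), with -0.89 ± 0.34 (unadjusted p = 0.0173, adjusted p = 0.874), and of 3 Bergmann glia genes tested, 1 passed, Gdf10, with -0.61 ± 0.27 (unadjusted p = 0.0359, adjusted p = 0.874). All 3 were lower in adropin-treated mice. Without mouse 8_3 none passed: Homer3 had -0.26 (unadjusted p = 0.0824), Calb2 -0.52 (unadjusted p = 0.0709) and Gdf10 -0.18 (unadjusted p = 0.125), each with an adjusted p of 0.994 in edgeR.

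Of 13 genes of the cerebellin synapse (such as cerebellins, neurexins and scaffolds) none passed in either set, with a median log2 fold change of 0.08 and, without mouse 8_3, 0.06. Of 19 genes of IP3 and calcium signalling, the 2 that passed were again Homer3 and Calb2, and without mouse 8_3 none did. Of 10 genes of forebrain inhibitory interneurons, which also hold Pvalb, none passed in either set. Over all genes tested the median was -0.0019 with all mice and 0.0009 without mouse 8_3.

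Of the 5 choroid plexus genes tested, all passed with all mice, lower in adropin-treated mice (Ttr, Kl, Clic6, Sostdc1 and Prlr, from -4.07 for Ttr to -1.11 for Kl), and Kl and Prlr still passed without mouse 8_3, at -0.61 and -0.73. Lhx9, a thalamic factor, passed in both sets (-1.24 and -1.38), as did Lct of the hippocampal list (-1.23 and -1.40), and Dsp of that list passed only without the mouse (-1.37). These genes of other tissues all had an adjusted p of 0.874 or, without the mouse, 0.994 (edgeR).

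Among the 15 other mice the members did not move as 1 group. Over 16 mice, Pearson's r of log2 levels was 0.95 between Car8 and Cbln3, 0.91 between Cbln3 and Pcp2, 0.87 between Car8 and Pcp2 and 0.80 between Cbln1 and Cbln3. Over the 15 mice without 8_3 the same values were 0.36, 0.62, 0.41 and 0.19, and r between Car8 and Cbln1 went from 0.73 to -0.44. The points share 1 library per mouse and its scaling, and Pcp2 and Cbln3 rest on few reads, so these are descriptions. The close correlation over 16 mice rested on mouse 8_3.

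A different pattern ran through Itpr1, Grid2ip and Calb1. The 4 lowest Itpr1 levels were 222 CPM in saline mouse 5_4, 264 in adropin mouse 4_3, 320 in adropin mouse 3_3 and 321 in saline mouse 6_1. The same 4 mice had the 4 highest Calb1 levels of the 15, at 136, 131, 138 and 134 CPM in that order. Their Grid2ip levels, at 3.13, 3.17, 3.52 and 2.24 CPM, were among the 5 lowest, the other being 2.89 in saline mouse 2_3. Both treatments were represented, so this division did not follow the groups.

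The summed level of the 6 olfactory bulb genes was 25.4, 30.7, 23.8 and 31.6 CPM in these 4 mice and 28.4 CPM in saline mouse 7_1, and at most 12.8 CPM in the other 11 mice. Other lists differed too. Among the 15 mice, astrocyte sums were lowest in 5_4, 4_3 and 3_3 (1692, 1916 and 2255 CPM), but 6_1 had 2696. Thalamic sums were lowest in the same mice (75.6, 79.6 and 77.6 CPM), but 6_1 had 94.6. Over the 15 mice, r was -0.53 between Calb1 and Itpr1, -0.63 between Calb1 and Grid2ip and 0.75 between Grid2ip and Itpr1, with Spearman's rho of -0.32, -0.59 and 0.53. As the mice fell into separate clusters for Grid2ip, these values summarize the division more than a gradual relation. The mice, and the astrocyte and thalamic lists, were singled out after their values were seen. The part of the tissue taken in this pattern was not tested.

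**Figure D4:**
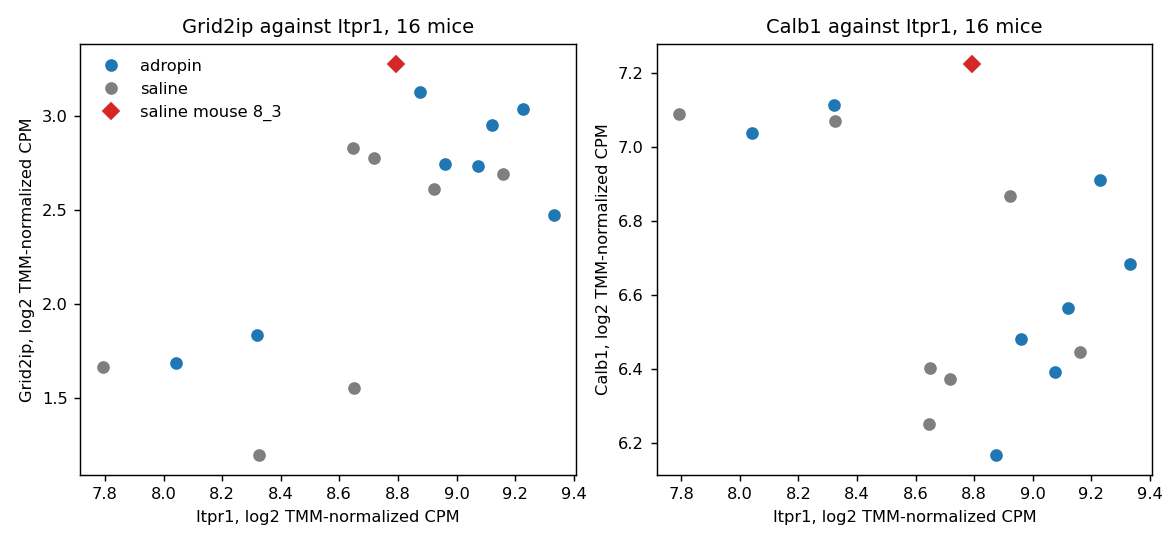
Log2 TMM-normalized CPM of Grid2ip (left) and Calb1 (right) against Itpr1 in the 16 mice, with adropin-treated mice in blue, saline-treated mice in grey and saline mouse 8_3 as a red diamond. The 4 mice with the lowest Itpr1, at 222 to 321 CPM, lie low for Grid2ip and high for Calb1 and include both treatments.

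A second saline mouse, 7_1, came next after 8_3 for several restricted genes, which was also noticed after the values were seen. Of the 15 cerebellar genes that were at least 3 times as high in mouse 8_3 as in any other (4 members and 11 of the Purkinje, granule and Bergmann lists), mouse 7_1 was the highest of the remaining 15 mice for 5, where it was highest for 3.16% of all genes tested. None of these 5 genes passed the filter, and mouse 7_1 was the highest of the 15 for 0 of the 4 genes that did. Its Cbln3 level was 2.77 CPM (103 reads, exact Poisson 95% interval 2.26 to 3.36), against at most 1.19 in the other 14 mice. Fat2 was at 1.35 CPM (50 reads, 0.9996 to 1.78), against at most 0.534. For Pcp2 (29 reads, 0.523 to 1.12 CPM), Ppp1r17 (18 reads) and Gabra6 (9 reads) its interval held the value of the next mouse. Its Car8, at 6.95 CPM, and Cbln1, at 19.4 CPM, were within the range of the other mice, and its mean log2 level over the 8 members, 4.08, was the second highest after 6.56 in mouse 8_3.

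That mean over the 8 members was 3.67 ± 0.18 (SD, n = 8) in adropin-treated mice and 3.91 ± 1.11 (SD, n = 8) in saline-treated mice. Without mouse 8_3 the saline mean was 3.53 ± 0.33 (SD, n = 7), so that the difference, adropin minus saline, went from -0.24 to 0.14, both smaller than the SD of the saline group. The lowest mouse was saline mouse 5_4 with 2.95.

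En2, a transcription factor of the midbrain and cerebellum that was under the filter, ran from 0.326 to 0.804 CPM in adropin-treated mice and from 0.781 to 10.9 in saline-treated mice. The highest other saline mouse had 1.45, and only the lowest saline mouse, 7_1, fell within the adropin range. The exact permutation test gave p = 0.0003 with all mice and p = 0.0008 without mouse 8_3, the smallest p among 13 further genes given this test. In edgeR's fit of every gene the log2 fold change was -1.96 ± 0.51 (adjusted p = 0.663) and, without mouse 8_3, -0.83 ± 0.23 (adjusted p = 0.803), so En2 did not pass the adjustment over all genes. Gabra6, also under the filter, had -7.20 ± 1.71 (adjusted p = 0.663) in that edgeR fit. Without mouse 8_3 it had -1.66 ± 0.80 (edgeR, unadjusted p = 0.0499, adjusted p = 0.803), on at most 10 reads per mouse. Its exact permutation test without mouse 8_3 gave p = 0.0979.

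The 5 genes outside the members whose log2 level was most like the mean member level over 16 mice, among 16217 genes above 1 CPM in at least 1 mouse, were Atp2a3 (Pearson's r = 0.95), Sycp1, Gprc5c, Cep76 and Gabra6 (each 0.93). Without mouse 8_3 they were Ppp1r26 (0.91), Gm16638 (0.90), Syne2, B230208B08Rik and Med12l (each 0.89). The 2 sets of 5 shared 0 genes.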

How the data were processed

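Poly-A-selected RNA from 16 mouse brains (8 adropin, 8 saline) was sequenced with paired reads. The authors aligned the reads with STAR to the Ensembl release 76 assembly (GRCm38) and deposited, from featureCounts, raw counts of uniquely aligned and unambiguous reads per gene. The authors also deposited CPM, which equal the counts divided by the library total without a TMM factor, and these entered only limma-trend. Of 40757 entries, 276 repeats were dropped, and 10135 of the remaining 40481 genes had no count in any mouse.

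From the counts, TMM factors over all genes were computed in edgeR 4.0.16 (R 4.3.3) and the study's filter was applied (over 1 CPM in 7 or more mice, 355 ribosomal RNA genes left out). Adropin was set against saline over the resulting 14949 genes with the quasi-likelihood test of edgeR, no covariate and Benjamini-Hochberg adjustment over all of them. Log2 levels used a prior count of 2, and single genes were compared by two-sided exact permutation. Each sample is 1 mouse, and which mice shared a cage is not given in the sources used here. No 2 libraries of a group were duplicates, since the chi-square of their counts was 7.22 to 155 per degree of freedom in the 56 pairs. The fit was tested on simulated counts with known changes before use.

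The members, the gene lists, the tests and the alternatives were chosen with earlier results of these data known. Genes named are the members, list genes past the cut-off or at least 3 times any other mouse in mouse 8_3, the 5 genes most like the mean member level, and Gabra6 and Gdf10. The results for some genes of the lists are not reported here. Fabp7, Slc1a3, Cdhr1, Trh, Shisa3, Doc2g and Sp8, which the rule does not name, were singled out after their values were seen. So were the hindbrain markers at 0, the astrocyte and thalamic sums, and mice 7_1, 3_3, 4_3, 5_4 and 6_1. Alternatives were DESeq2 1.42.0, limma-voom and limma-trend with a pseudocount of 1 (limma 3.58.1), DESeq2 size factors in edgeR, no filter, library sizes without TMM, a minimum of 10 counts per mouse, ribosomal RNA genes kept, each label number as a block, a prior count of 0.5, untransformed levels and leaving out each mouse. The fit without a filter as the value reported for Cbln3 and Pcp2 was added after seeing the data. Intervals cover counting error only. Coordinates are from GENCODE M21 and upstream windows from RefSeq.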

Additional observations from a re-analysis of the deposited data

Results flagged for a closer look

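A gap between the highest mouse and the next that exceeded Dixon's limit was found 8 times among 22 groups examined (11 genes or scores in 2 treatment groups). Such a gap arises by chance in about 1 in 20 groups, but these genes were chosen with the values of mouse 8_3 known, so the number of gaps is a description only. All 8 gaps belonged to saline mouse 8_3. Car8 was at 91.7 CPM in this mouse and 6.95 in the next saline mouse, Cbln1 at 126 and 30.3, Cbln3 at 125 and 2.77, and Pcp2 at 28.2 and 0.781. Pvalb was at 240 CPM and 90.0 in the next saline mouse. Of 2 further cerebellar genes, Gabra6 was at 34.9 CPM and 0.242 in the next saline mouse, and Gdf10 at 31.0 and 10.2. The mean log2 level of the 8 members was 6.56 in mouse 8_3 and 4.08 in the next saline mouse. These genes share the library of 1 mouse, so the gaps are not independent of each other. Calb1, Grid2ip and Itpr1 showed no such gap in either group, and no adropin-treated mouse stood apart in this way.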

How the results depend on the processing

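The count of members past the cut-off was 1 of 6 as reported. It was 0 with limma-voom and limma-trend, where Car8 had -0.34 and -0.33, and with either label number as a block, where it had 0.27 and -1.07. It was 2 with at least 10 counts in every mouse and 3 with no filter, the last 2 settings testing more members (7 and 8). DESeq2 gave no p for Car8 and Cbln1, so its count is not set beside these, and its log2 fold changes were -1.41 and -0.69. With 1 mouse left out the count ran from 0 to 1. It was 0 without saline mouse 8_3 and, with the fold change of Car8 still near that of all mice, without adropin mouse 2_1, 3_3, 4_3 or 5_5. With the first label number as block, Grid2ip had 0.77 and Cbln1 -0.05. The log2 fold change of Car8 ran from -1.55 to 0.20 with 1 mouse left out. That of Pvalb was 0.025 with the first label block and ran from -0.40 to 0.12, and that of Calb1 ran from -0.12 to 0.021. In each of these the highest value was the one without mouse 8_3, and Calb1 was also above 0, at 0.003, without adropin mouse 7_4. Pcp2 without the filter had 0.30 without mouse 8_3, and Cbln3 had -0.63. Mice 8_1 and 8_3, both saline, share a first label number that no adropin-treated mouse has. With that block they thus added nothing to the difference between groups, which rested on the label numbers found in both. Why the second label block changed Car8 was not tested. Without 1 mouse, Itpr1 ran from 0.16 (without 5_4) to 0.35 (without 4_3, unadjusted p = 0.0493), Grid2ip from 0.06 (without 6_1) to 0.34 (without 8_3) and Cbln1 from -0.80 (without 5_4) to -0.02 (without 8_3). No member besides Car8, Pvalb, Calb1 and Pcp2 changed direction under the alternatives run. Over all genes, 63 were called as reported, 28 with limma-trend and 1353 with no filter. With 1 mouse left out, 49 to 107 were called, the most without adropin mouse 4_3, and 96 were called without saline mouse 5_3. Depth limits Pcp2 and Cbln3 outside mouse 8_3, with 0 to 29 and 14 to 103 reads per mouse. Some label numbers occur in both groups, but no source says that they pair mice, so the fits with a block are not paired analyses.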
